A study of Mus musculus with 1073 samples.

Results

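Primitive erythroid cells (EryP) were the red cell population sorted from mouse yolk sac at E8.5, and 66 of the 926 single cells in the filtered expression tables carried this label. Members were chosen by the label alone: every filtered cell of the E8.5 EryP capture was included, and no expression value was used. The capture gave 84 EryP cells of 1073 captured in the whole series, so 18 EryP cells did not pass the filter of the study.

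The study sorted yolk sac populations of C57BL/6 mice by surface antigens and captured single cells on Fluidigm C1 chips. No treatment was given, and the labels name no transgene or deletion for the 4 groups used here. EryP were viable TER119+ CD41- CDH5- cells of the E8.5 yolk sac, which was dissociated with collagenase and dispase. They were set against 89 haematopoietic progenitor/colony forming cells (HPC, labelled as erythro-myeloid progenitors, TER119- CDH5+ CD41+), 79 endothelial cells (Endo, TER119- CD41- CDH5+) and 37 megakaryocytes (Mk, TER119- CDH5- CD41+) of the same stage, strain and dissociation. Because TER119, CD41 and CDH5 set the gates, the levels of *Itga2b* (CD41) and *Cdh5* are given below as a check of the sort and not as results.

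Each of these 4 populations was 1 capture sequenced in 1 lane, and no embryo or pool was named for any cell. A population was therefore 1 sample, cells were not replicates, and no p-value or standard error between populations is given. Population, capture and lane cannot be told apart. Genes were described by a fixed size instead. CPM here are read counts scaled by the authors with 1 size factor per cell, which is not the library size. A gene was called higher or lower when the mean CPM + 1 (with 1 added to the mean) differed by 4-fold or more. The higher population also had to have a mean of 100 CPM or more, with at least 1 count in at least 50% of its cells.

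Primitive erythroid cells are the first blood cells of the mammalian embryo. They arise from mesoderm in the blood islands of the yolk sac, enter the circulation as large nucleated cells, and go on dividing while they accumulate haemoglobin. Their haemoglobin is built from embryonic globins, the alpha-type zeta chain (*Hba-x*) and the beta-type chains beta-h1 (*Hbb-bh1*) and epsilon-y (*Hbb-y*), together with the alpha chains (*Hba-a1*, *Hba-a2*) that adult red cells also use. Haem comes from a pathway that *Alas2* opens in erythroid mitochondria, and KLF1 and GATA1 are transcription factors that bind CACCC and GATA motifs of erythroid genes.

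Promoter stretches of 4 of the 5 marker genes of this population are shown because these genes carry the description that follows. Each is the 130 bases before the RefSeq start (GRCm38.p6), written 5′ to 3′ on the strand of the gene. Capitals mark the motifs searched on both strands: GATA motifs (AGATAA or AGATAG or TGATAA or TGATAG), the CACCC motif, the CCAAT box and the TATAAA box. The stretch of *Hba-x* is chr11:32276470-32276599 on the plus strand, that of *Hbb-y* is chr7:103853208-103853337 on the minus strand, that of *Alas2* is chrX:150547287-150547416 on the plus strand, and that of *Klf1* is chr8:84901852-84901981 on the plus strand.
Hba-x: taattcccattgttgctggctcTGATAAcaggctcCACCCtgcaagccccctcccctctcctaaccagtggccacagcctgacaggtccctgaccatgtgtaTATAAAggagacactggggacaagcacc
Hbb-y: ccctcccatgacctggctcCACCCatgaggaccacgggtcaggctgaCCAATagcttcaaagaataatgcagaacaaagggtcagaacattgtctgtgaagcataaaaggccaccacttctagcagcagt
Alas2: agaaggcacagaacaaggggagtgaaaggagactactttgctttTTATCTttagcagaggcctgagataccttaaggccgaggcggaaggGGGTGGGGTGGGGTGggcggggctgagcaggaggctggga
Klf1: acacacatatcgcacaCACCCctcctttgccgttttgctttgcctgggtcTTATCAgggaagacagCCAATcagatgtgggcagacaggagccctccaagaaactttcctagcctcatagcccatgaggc

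In these stretches *Hba-x*, *Alas2* and *Klf1* held a GATA motif together with at least 1 CACCC, and *Hbb-y* held CACCC and CCAAT. The 3 CACCC motifs of *Alas2* lie end to end on the opposite strand. The GENCODE annotation places the starts of all 4 genes further upstream than RefSeq does, so the stretch of *Hba-x* lies wholly inside the GENCODE gene, and 9 bases of that of *Hbb-y*, 42 of *Alas2* and 54 of *Klf1* do. *Hbb-bh1* was not among the matched promoters.

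The 66 EryP cells had total counts of 1303515 to 3017274 per cell, with a median of 2099062.5. Medians of the other populations were 1555237 (HPC), 1874645 (Endo) and 3536330 (Mk). The values count reads and not molecules. The 4 lanes belonged to 1 flow cell and reused index pairs: of the 84 pairs of the EryP lane, 79 were also used for HPC, 67 for Endo and 48 for Mk. Transcripts of *Xist* and of Y-linked genes at 20 CPM or more of each were found together in 18 of 66 EryP cells, 14 of 89 HPC, 17 of 79 Endo and 10 of 37 Mk. At 5 counts or more of each, they were found together in 30, 40, 59 and 16 cells. The part of such cells in the results was not tested beyond repeating gene counts, ratios, list medians and correlations without those at 20 CPM or more.

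Fewer genes were counted in EryP cells than in those of the other populations. A gene was counted when it had at least 1 count after every cell was thinned at random to 840000 counts. EryP cells then had 4808 genes (lowest), 6859 (median) and 8216 (highest), while the medians were 8615 in HPC, 7845 in Endo and 7793 in Mk. At full depth the medians were 7385.5, 9053, 8437 and 8666. The EryP range overlapped that of each other population in both cases. Fewer expressed genes and less RNA per cell cannot be told apart in these values.

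Globin transcripts made up a large part of the EryP library. The 9 globin genes took 4.25% (lowest), 8.94% (median) and 17.1% (highest) of the counts of an EryP cell. The median was 0.0136% in HPC, with a highest cell at 3.71%, and no Endo cell exceeded 0.0113%. Mk lay between, with a median of 2.69% and a highest cell at 12.0%. The 10 most abundant genes of a cell took a median of 14.1% of its counts in EryP, against 6.87% in HPC, 6.37% in Endo and 8.92% in Mk.

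The markers of the label were counted in nearly all EryP cells. *Alas2*, *Hbb-bh1*, *Hba-x* and *Hbb-y* were counted in 66 of 66 EryP cells each (100%, exact Clopper-Pearson 95% interval 94.6% to 100%, counting error only), and *Klf1* in 63 of 66 (95.5%, 87.3% to 99.1%). A count alone does not set EryP apart, because HPC and Mk cells also held counts of these genes. By level, 0 of 89 HPC, 0 of 79 Endo and 9 of 37 Mk reached the lowest EryP cell for *Hba-x*. These numbers were 3, 0 and 13 for *Alas2*, 2, 0 and 16 for *Hbb-bh1*, and 31, 1 and 25 for *Hbb-y*. *Cdh5* was counted in 1 of 66 EryP cells and *Itga2b* in 37 of 66, at a mean of 24.5 CPM against 165 CPM in Mk.

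Markers of other yolk sac cell types had low summed levels in most EryP cells. The summed level of the 12 macrophage genes had a median of 0 CPM and a highest cell at 90.6 CPM, that of 14 mesenchyme genes a highest cell at 32.5 CPM, and that of the 5 visceral endoderm genes in the table a highest cell at 23.9 CPM. The sum over 20 endothelial genes had a median of 23.3 CPM and a highest cell at 327 CPM, and the sum over 16 megakaryocyte genes a median of 53.2 CPM and a highest cell at 724 CPM. *Kdr*, *Pf4* and *Cd34* were at 0 in all 66 EryP cells, which allows a share of cells with a count of up to 4.55% for each. The same held for 13 of the 20 endothelial and 8 of the 16 megakaryocyte genes. Other members were counted, with *Pecam1* at up to 315 CPM, *Tek* at up to 290 CPM and *Itgb3* at up to 384 CPM. Calls in these lists were all lower in EryP, with *Mrc1* of the macrophage list and *Vim* of the mesenchyme list lower than in HPC and Endo and no visceral endoderm gene called. Of 14 signalling genes, 3 (*Id2*, *Id3* and *Tgfbr2*) were lower than in Endo and none was called otherwise. Only 3 of the 14 reached the level limit in EryP or Endo. Over all genes that reached the limit, 20.9% were lower than in Endo and 6.18% lower than in HPC.

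**Figure D1:**
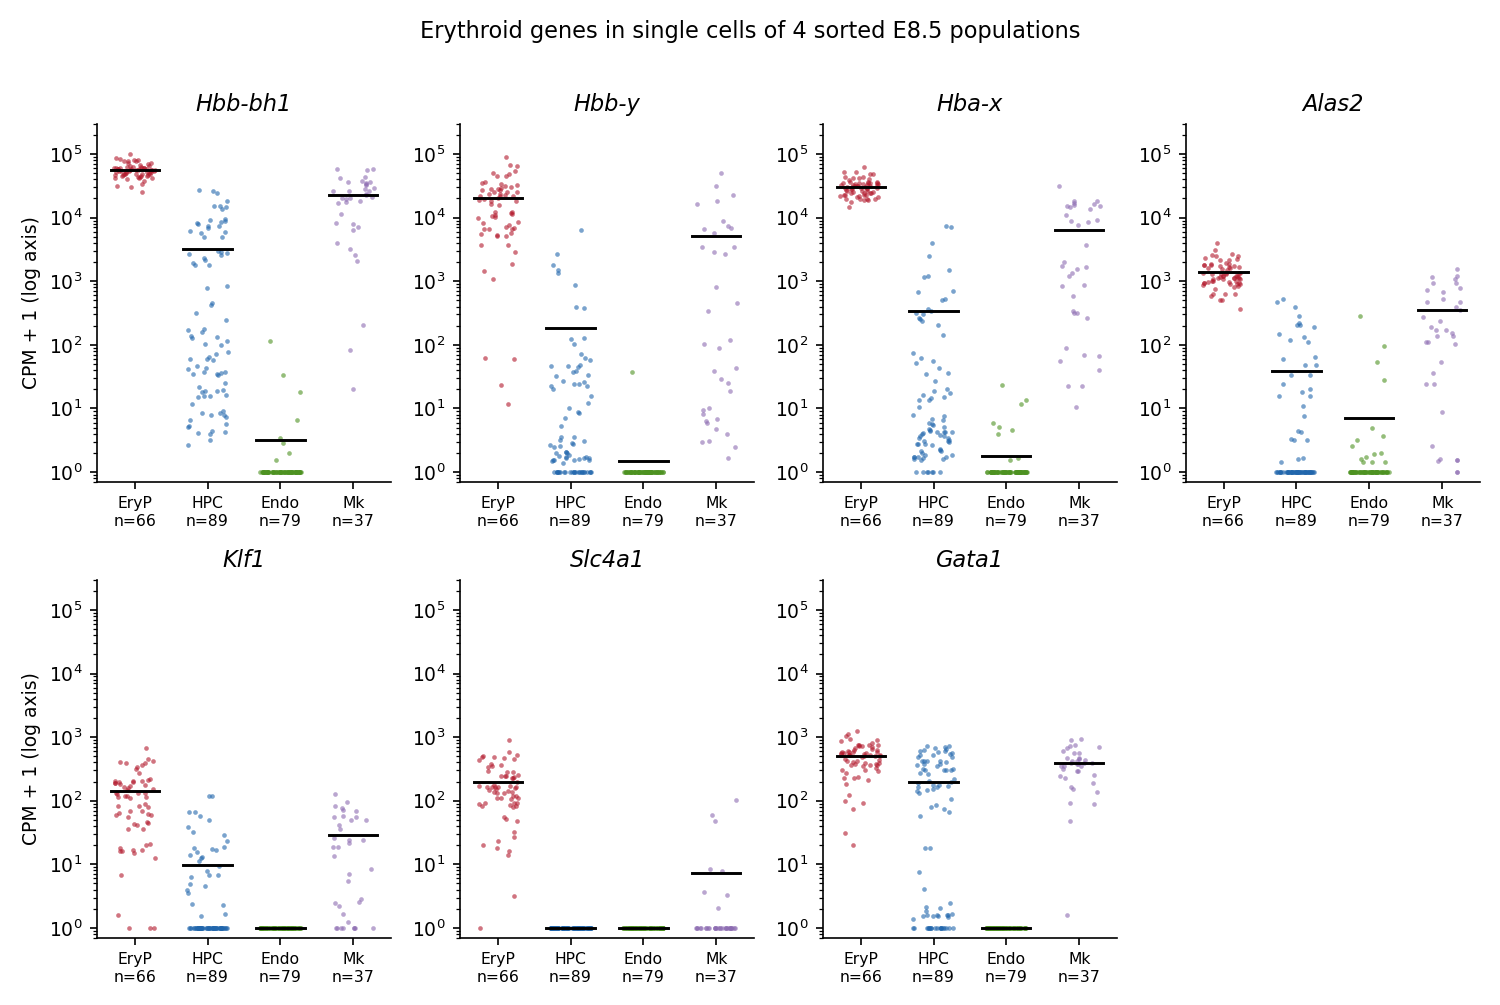
Level of 7 erythroid genes in single cells of EryP (66), HPC (89), Endo (79) and Mk (37), as the deposited CPM + 1 on a log axis. Each point is 1 cell and the black line is the mean CPM + 1. *Hba-x* was at 14453 CPM or more in every EryP cell and in 9 of 37 Mk, and *Slc4a1* was at 0 in every HPC and Endo cell.

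Among the beta-type globins, *Hbb-bh1* (chr7:103841637-103843164, minus strand, GENCODE coordinates on GRCm38 here and below) was high in every EryP cell, from 24909 CPM (lowest) over 55436 (median) to 99782 (highest). Its mean was 56134 CPM in EryP, 3191 in HPC, 2.20 in Endo and 22619 in Mk. The lowest EryP cell was reached by 2 of 89 HPC, no Endo and 16 of 37 Mk, so EryP and Mk overlapped. *Hbb-y* (chr7:103851749-103853216, minus strand) spread far more widely, from 10.9 CPM over 17100 to 88785 CPM in EryP. Its mean was 20157 CPM in EryP, 184 in HPC, 0.463 in Endo and 5120 in Mk. *Hbb-y* missed the 4-fold limit against Mk by a small margin, with a log2 ratio of 1.98.

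The alpha-type gene *Hba-x* (chr11:32276400-32278116, plus strand) ran from 14453 CPM over 29808 to 61696 CPM in EryP. All HPC and Endo cells lay below the lowest EryP cell, whereas 9 of 37 Mk reached it. The mean of *Hba-x* was 30679 CPM in EryP, 341 in HPC, 0.794 in Endo and 6463 in Mk, which gave log2 ratios of 6.49, 14.06 and 2.25. With medians over cells these were 12.54, 14.86 and 4.18. *Hba-a1* and *Hba-a2* followed the same order of populations, with EryP means of 3502 and 1488 CPM and Mk means of 637 and 184 CPM. These 2 genes are near-identical copies, and reads could be split between them, so their separate levels are uncertain. The same holds for the adult beta genes *Hbb-bs* and *Hbb-bt*, at EryP means of 305 and 75.1 CPM.

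Levels of different genes were compared only per length of exon. Per kilobase, mean CPM in EryP was 91573 for *Hbb-bh1*, 32706 for *Hba-x*, 31844 for *Hbb-y*, 4313 for *Hba-a1*, 2232 for *Hba-a2*, 398 for *Hbb-bs*, 106.8 for *Hbb-bt*, 88.4 for *Hbq1b* and 7.61 for *Hbb-bh2*. *Hbb-bh1*, *Hba-x* and *Hbb-y* stood at the top of this order. *Hba-x* and *Hbb-y* did not differ beyond their spread over cells. Alpha-type transcripts per length made up 18.1% (lowest), 24.4% (median) and 30.8% (highest) of alpha-type plus beta-type transcripts.

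Most genes of haem synthesis were higher in EryP than in HPC and Endo. *Alas2* (chrX:150547375-150570638, plus strand), which encodes the first and rate-limiting enzyme in erythroid cells, ran from 369.6 CPM over 1208 to 3925 CPM in EryP. Its mean was 1394 CPM in EryP, 38.1 in HPC, 6.02 in Endo and 356 in Mk. The groups overlapped in 3 of 89 HPC, no Endo and 13 of 37 Mk. Its counts can include reads of *Apex2* and *Mir3620*, which share exonic sequence with it. *Cpox*, a later enzyme of the pathway, had means of 284, 14.6, 8.84 and 60.6 CPM in EryP, HPC, Endo and Mk.

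Of the 13 haem genes in the table, 9 were higher in EryP than in HPC by 4-fold or more, 10 were higher than in Endo and 2 (*Cpox* and *Abcb10*) were higher than in Mk, and none was lower. Over all genes tested, 3.74% were called higher than in HPC (86 of 2302), 6.82% of the same genes higher than in Endo and 1.52% higher than in Mk (35 of 2302). The median log2 ratio of the haem genes was 3.04, 4.10 and 1.19 against HPC, Endo and Mk. Over the 3339 genes at 100 CPM in at least 1 population, the median was 0.09, 0.27 and 0.09. Without the added 1 CPM, and with a gene that had no count in a population set to 3 counts over that population, the medians of the haem genes were 3.07, 4.26 and 1.24.

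Of the 16 iron genes, 2 were higher in EryP. *Slc25a37*, which encodes the iron importer mitoferrin-1 of the inner mitochondrial membrane, had EryP levels of 502 CPM over 1682 to 4375 CPM, and means of 1782, 51.9, 59.8 and 232 CPM in EryP, HPC, Endo and Mk. *Tfrc*, the transferrin receptor, had means of 1765, 199, 63.9 and 727 CPM. Both were called higher than in HPC (3.74% of all genes tested) and Endo (6.82%), and *Slc25a37* also than in Mk (1.52%). None of the other 14 iron genes passed the limits of level and fold together in any comparison, and most of them were below the level limit. *Fth1*, the ferritin heavy chain, had means of 3289, 1003, 1002 and 1857 CPM.

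Among the genes higher in EryP than in all 3 populations, a gene of the red cell membrane had the greatest smallest ratio. *Slc4a1* (chr11:102348824-102366203, minus strand), which encodes the band 3 anion exchanger, was counted in 65 of 66 EryP cells at 154.9 CPM (median) and up to 901 CPM. It was counted in 0 of 89 HPC, which allows a share of up to 3.37%, and in 0 of 79 Endo, which allows up to 3.80%. The mean of 199 CPM in EryP was at least 8669-fold higher than in HPC and at least 8987-fold higher than in Endo, taking 3 counts over each of those populations as the floor. Against Mk, where 8 of 37 cells had a count and the mean was 6.204 CPM, the ratio of mean CPM was 32.1. Over the 3 comparisons its smallest log2 ratio was 4.79, the highest among the 28 genes called higher than all 3. With medians over cells the log2 ratio against Mk was 7.28. With 10 CPM added in place of 1 it was 3.69 against Mk, and against HPC and Endo it fell from 7.64 to 4.39.

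Of the 22 membrane genes, 12 were higher in EryP than in HPC (3.74% of all genes tested), 11 than in Endo (6.82%) and 6 than in Mk (1.52%). The median log2 ratio was 3.34, 5.56 and 1.75 with the added 1 CPM, and 3.5, 9.21 and 1.77 without it and with genes without a count at the bound. *Ermap*, an erythroblast membrane protein, had means of 232, 1.14, 0.0438 and 13.5 CPM in EryP, HPC, Endo and Mk. *Rhag*, the Rh-associated glycoprotein, had means of 222, 3.88, 0 and 18.5 CPM and was counted in 55 of 66 EryP cells. *Epb42* (protein 4.2, which links band 3 to the skeleton) had means of 260, 5.75, 0 and 37.3 CPM, and *Add2* (beta-adducin) had means of 209, 5.85, 7.31 and 21.7 CPM.

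*Sptb*, erythroid beta-spectrin, had means of 176, 26.2, 0 and 91.0 CPM in EryP, HPC, Endo and Mk. It was called higher than in HPC and Endo and not than in Mk. *Sptbn1*, the beta-spectrin of other cells, was named after its values were seen and lay the other way round, with means of 65.4, 811, 1286 and 346 CPM, which can include reads of 1 overlapping gene. *Cd47*, an integrin-associated surface protein, was the only membrane gene of the list called lower, against HPC and Endo, with means of 67.4, 332, 373 and 87.6 CPM.

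As a list, transcription factors had lower median ratios than the genes of haem and membrane, although single factors did not. Of the 20 erythroid factors, 1 was called higher than in HPC (3.74% of all genes tested), 4 than in Endo (6.82%) and 1 than in Mk (1.52%). *Klf1* (chr8:84901928-84905291, plus strand) was the only one of 20 erythroid factors called higher than in all 3 populations (1.22% of all genes tested), with EryP levels of 0 CPM over 114.3 to 670 CPM. Its mean was 140 CPM in EryP, 8.62 in HPC, 0 in Endo and 27.5 in Mk. The share of cells with a *Klf1* count was 95.5% in EryP, 36.0% in HPC (26.1% to 46.8%) and 78.4% in Mk (61.8% to 90.2%). These limits cover counting error within 1 capture and do not compare populations. *Gata1* (chrX:7959260-7978071, minus strand) was counted in all 66 EryP cells at 18.8 CPM over 512 to 1240 CPM.

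The mean of *Gata1* was 501 CPM in EryP, 199 in HPC, 0 in Endo and 392 in Mk, and only the Endo comparison passed the limit. *Nfe2* and *Gfi1b*, which megakaryocytes also use, were at 194 and 256 CPM in EryP and at 197 and 371 CPM in Mk. *Tal1*, a factor shared by blood and endothelium, had means of 128.95, 79.6, 43.2 and 130.9 CPM in EryP, HPC, Endo and Mk. The median log2 ratio of the 20 factors was 0.35, 1.20 and 0.09. Against Mk its sign followed the scaling: it was -0.07 with CPM on the total count.

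Genes that accompany red cell maturation were higher in EryP in 7 of 16 cases against HPC (3.74% of all genes tested), 7 against Endo (6.82%) and 5 against Mk (1.52%). *Hemgn* (chr4:46393989-46413506, minus strand), an erythroid nuclear protein, had EryP levels of 1.37 CPM over 650 to 1853 CPM. Its means were 664, 6.87, 0 and 56.2 CPM in EryP, HPC, Endo and Mk. *Car2*, a carbonic anhydrase, had means of 6537, 678, 305 and 1425 CPM. *Bpgm* makes the 2,3-bisphosphoglycerate that lowers the oxygen affinity of haemoglobin, and its means were 285, 33.3, 26.9 and 40.2 CPM. *Ube2l6*, an ubiquitin-like conjugating enzyme, had means of 624, 19.7, 1.77 and 104.7 CPM.

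**Figure D2:**
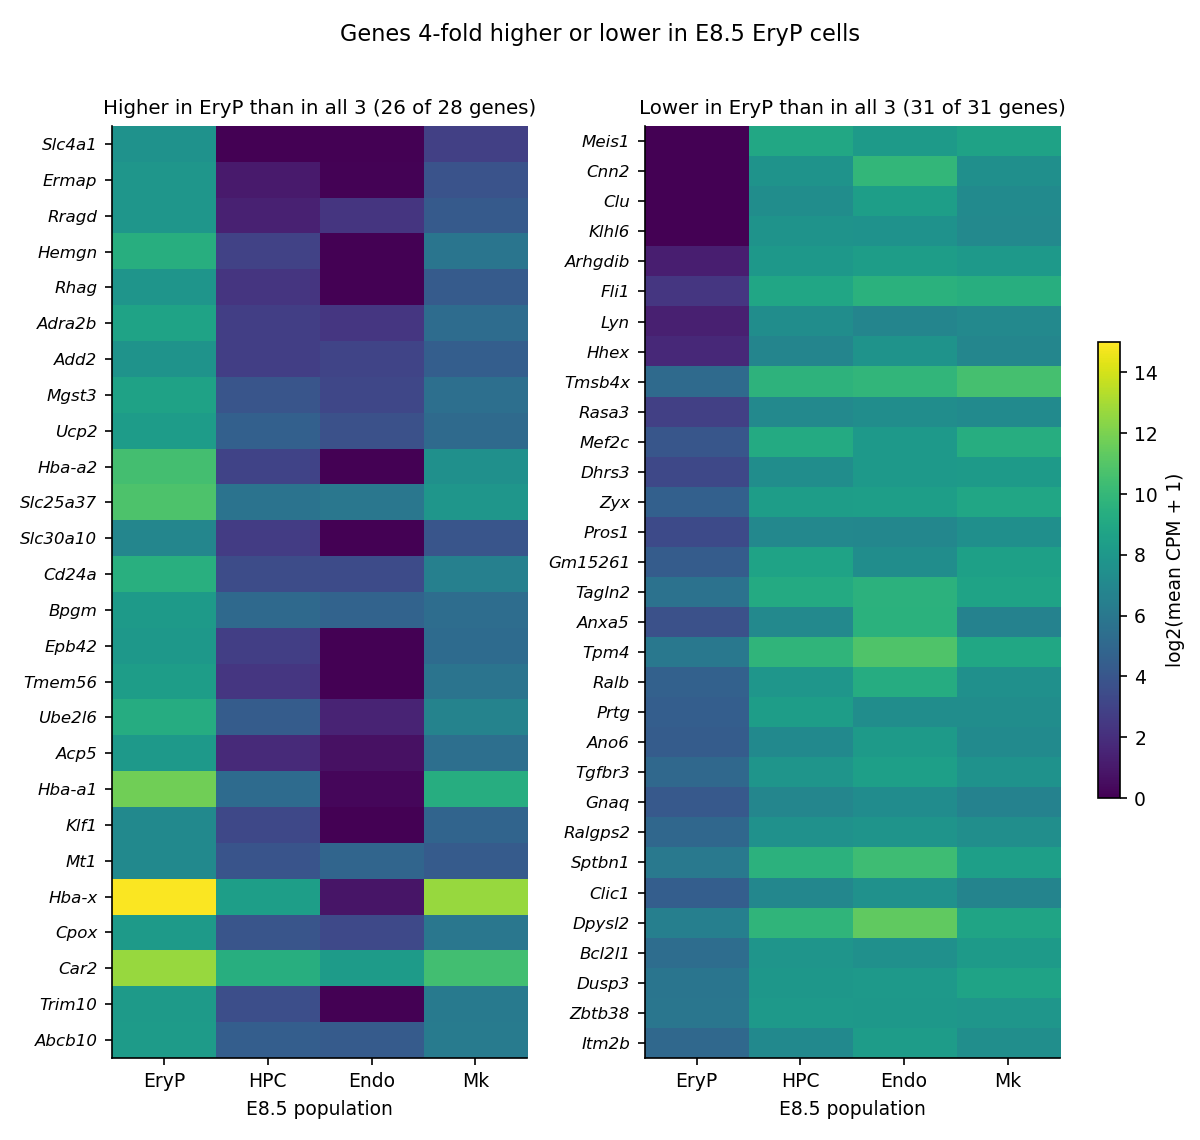
Mean level, as log2 of mean CPM + 1, of 26 of the 28 genes higher and the 31 genes lower in EryP than in HPC, Endo and Mk by 4-fold or more. Each row is a gene and each column a population. *Slc4a1* (199 CPM in EryP) heads the first set, and *Meis1* (0 CPM in EryP) heads the second.

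Higher than in each of HPC, Endo and Mk by 4-fold or more were 28 of 2302 genes (1.22%), and 18 of the 28 belonged to the gene lists. Just inside the limit lay *Abcb10*, with a smallest log2 ratio of 2.00, and just outside lay *Hbb-y*, with 1.98. The 28 included 3 globins (*Hba-x*, *Hba-a1*, *Hba-a2*), the haem genes *Cpox* and *Abcb10*, the iron importer *Slc25a37*, 6 membrane genes (among them *Slc4a1*, *Ermap*, *Rhag*, *Add2* and *Epb42*), *Klf1* and 5 maturation genes (*Hemgn*, *Bpgm*, *Ube2l6*, *Car2*, *Trim10*).

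The other genes of the set have no single function. *Rragd*, a Rag GTPase of amino acid sensing, had means of 232, 1.62, 3.89 and 17.7 CPM in EryP, HPC, Endo and Mk. *Adra2b*, an adrenergic receptor, had means of 412, 5.83, 4.08 and 37.7 CPM. *Slc30a10*, a manganese exporter, had means of 115.4, 5.36, 0 and 14.2 CPM. *Cd24a*, a surface sialoglycoprotein that red cells carry, ran from 0.589 CPM over 532 to 3084 CPM in EryP, with means of 693, 10.4, 9.57 and 91.2 CPM. *Mgst3* (a microsomal glutathione transferase) and *Ucp2* (a carrier of the inner mitochondrial membrane) had EryP means of 402 and 316 CPM.

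Also in this set, and named after their values were seen, were *Mt1*, *Acp5* and *Tmem56*. *Mt1*, a metallothionein that binds zinc and copper, had means of 140, 13.9, 28.3 and 18.8 CPM in EryP, HPC, Endo and Mk.

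The search of promoters covered the 250 bases before the start of 32851 RefSeq promoters. At least 1 GATA motif was found in 26.5% of them, CACCC in 52.0%, CCAAT in 33.8% and TATAAA in 12.4%. Of the 28 higher genes 21 were matched to a promoter, and 14 of the 21 (66.7%) held a GATA motif, 17 (81.0%) CACCC, 10 (47.6%) CCAAT and 4 (19.0%) TATAAA. Of the 31 lower genes 25 were matched, with a GATA motif in 7 (28.0%), CACCC in 19 (76.0%), CCAAT in 9 (36.0%) and TATAAA in 2 (8.00%). These are letters in a window and were not tested for binding.

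Lower than in each of the other populations by 4-fold or more were 31 of the 1605 genes that reached the level limit in all 3 (1.93%), and 6 of the 31 belonged to the gene lists. Just inside lay *Itm2b*, with a smallest log2 ratio of 2.02 in this direction, and just outside *Tln1*, with 1.91. Against single populations, 6.18% of 2217 genes were lower than in HPC, 500 of 2394 (20.9%) lower than in Endo and 85 of 2243 (3.79%) lower than in Mk.

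*Meis1* (chr11:18879817-19018985, minus strand), a homeobox factor of blood progenitors and megakaryocytes, was not counted in any of the 66 EryP cells, which allows a share of cells of up to 4.55%. It was counted in 88 of 89 HPC, 78 of 79 Endo and 37 of 37 Mk, at means of 519, 290 and 401 CPM. These means were at least 19559-fold, 10922-fold and 15118-fold higher than in EryP, with 3 counts over the 66 cells as the floor. *Cnn2* (calponin 2), *Clu* (clusterin) and *Klhl6* were also at 0 in all 66 EryP cells, with means of 211, 163 and 209 CPM in HPC.

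Other regulators of progenitors and endothelium were low in EryP. *Fli1* (chr9:32422204-32542861, minus strand), an ETS factor, was counted in 16 of 66 EryP cells and reached 39.5 CPM at most. Its mean was 4.15 CPM in EryP, 477 in HPC, 765 in Endo and 663 in Mk. *Hhex*, a homeobox factor of blood and endothelium, was counted in 5 of 66 EryP cells, with means of 2.28, 113.4, 204 and 115.1 CPM in the same order. *Mef2c*, a MADS-box factor, had means of 15.1, 566, 279 and 646 CPM. *Lyn*, a Src-family kinase, had means of 1.51, 164, 110.9 and 134.6 CPM.

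**Figure D3:**
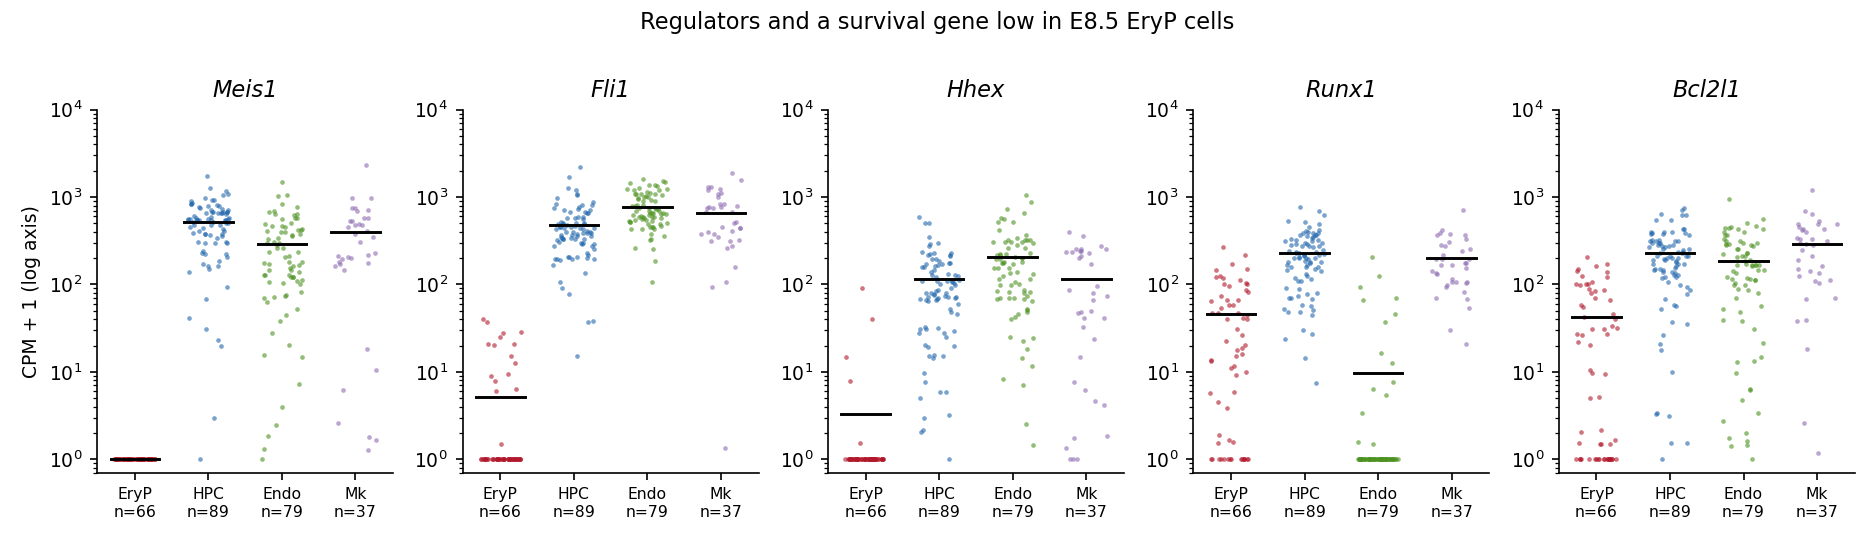
Level of *Meis1*, *Fli1*, *Hhex*, *Runx1* and *Bcl2l1* in single cells of EryP, HPC, Endo and Mk, as the deposited CPM + 1 on a log axis, with 1 point a cell and the black line at the mean CPM + 1. *Meis1* was at 0 in all 66 EryP cells, *Fli1* reached 39.5 CPM at most there, and *Runx1* was low in both EryP and Endo.

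Of the 22 progenitor genes, none was higher in EryP, and 9 were lower than in HPC (6.18% of all genes tested), 5 lower than in Endo (20.9%) and 5 lower than in Mk (3.79%). The level limit was reached in the respective pair of populations by 10, 5 and 6 of the 22. There were 13 of the 22 with no count in any EryP cell. The median log2 ratio was -3.87, -0.82 and -1.34 with the added 1 CPM, and -6.40, -6.03 and -5.41 with genes without a count at the bound. *Runx1*, required for definitive haematopoiesis, was counted in 51 of 66 EryP cells at up to 267 CPM, with means of 44.8, 229, 8.64 and 200 CPM in EryP, HPC, Endo and Mk. *Kit*, the stem cell factor receptor, had means of 8.08, 107.5, 55.6 and 19.9 CPM, and *Myb* had 2.28, 39.9, 0.212 and 14.5 CPM.

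Of the 15 megakaryocyte genes other than the sorting antigen *Itga2b*, 7 were lower in EryP than in Mk (3.79% of all genes tested) and none was higher. *Plek*, a platelet protein kinase C substrate, was at 0 in all EryP cells and at means of 1237, 13.1 and 1805 CPM in HPC, Endo and Mk. Of the 19 endothelial genes other than the sorting antigen *Cdh5*, 10 were lower than in Endo (20.9% of all genes tested) and 5 lower than in HPC (6.18%). *Lyve1*, a hyaluronan receptor, was at 0 in all EryP and Mk cells and at 525 CPM in HPC and 2754 CPM in Endo.

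Genes of the actin cytoskeleton and adhesion were in part lower in EryP, with 5 of 20 called lower than in HPC, 9 lower than in Endo, 3 lower than in Mk and none higher. Over all genes tested these shares were 6.18%, 20.9% and 3.79%. *Tmsb4x*, the actin monomer-binding thymosin beta-4, ran from 0 CPM over 32.0 to 177 CPM in EryP. Its means were 36.0, 835, 944 and 1546 CPM in EryP, HPC, Endo and Mk. *Vim*, the intermediate filament protein vimentin, was at 0 in all EryP cells and at 391, 1875 and 7.22 CPM. *Zyx*, a focal adhesion protein, had means of 23.1, 323, 339 and 476 CPM. *Actb* itself was lower by less than 4-fold, with means of 2646, 7627, 8642 and 7038 CPM.

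Among erythropoietin pathway and survival genes, *Epor* was counted in 63 of 66 EryP cells and had means of 110, 32.3, 10.9 and 91.8 CPM in EryP, HPC, Endo and Mk. It passed the limit against Endo alone. *Bcl2l1* (chr2:152780668-152831728, minus strand) encodes BCL-XL, the anti-apoptotic protein of later erythroblasts. It was counted in 45 of 66 EryP cells at 14.3 CPM (median) and up to 206 CPM, with means of 40.9, 226, 187 and 292 CPM. *Bcl2l1* and *Lyn* were the 2 of 12 genes called lower in all 3 comparisons (1.93% of all genes tested), and *Pim1* was called higher than in Endo beside *Epor*. *Mcl1*, another anti-apoptotic gene, had means of 87.2, 99.4, 148.8 and 122.4 CPM.

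**Figure D4:**
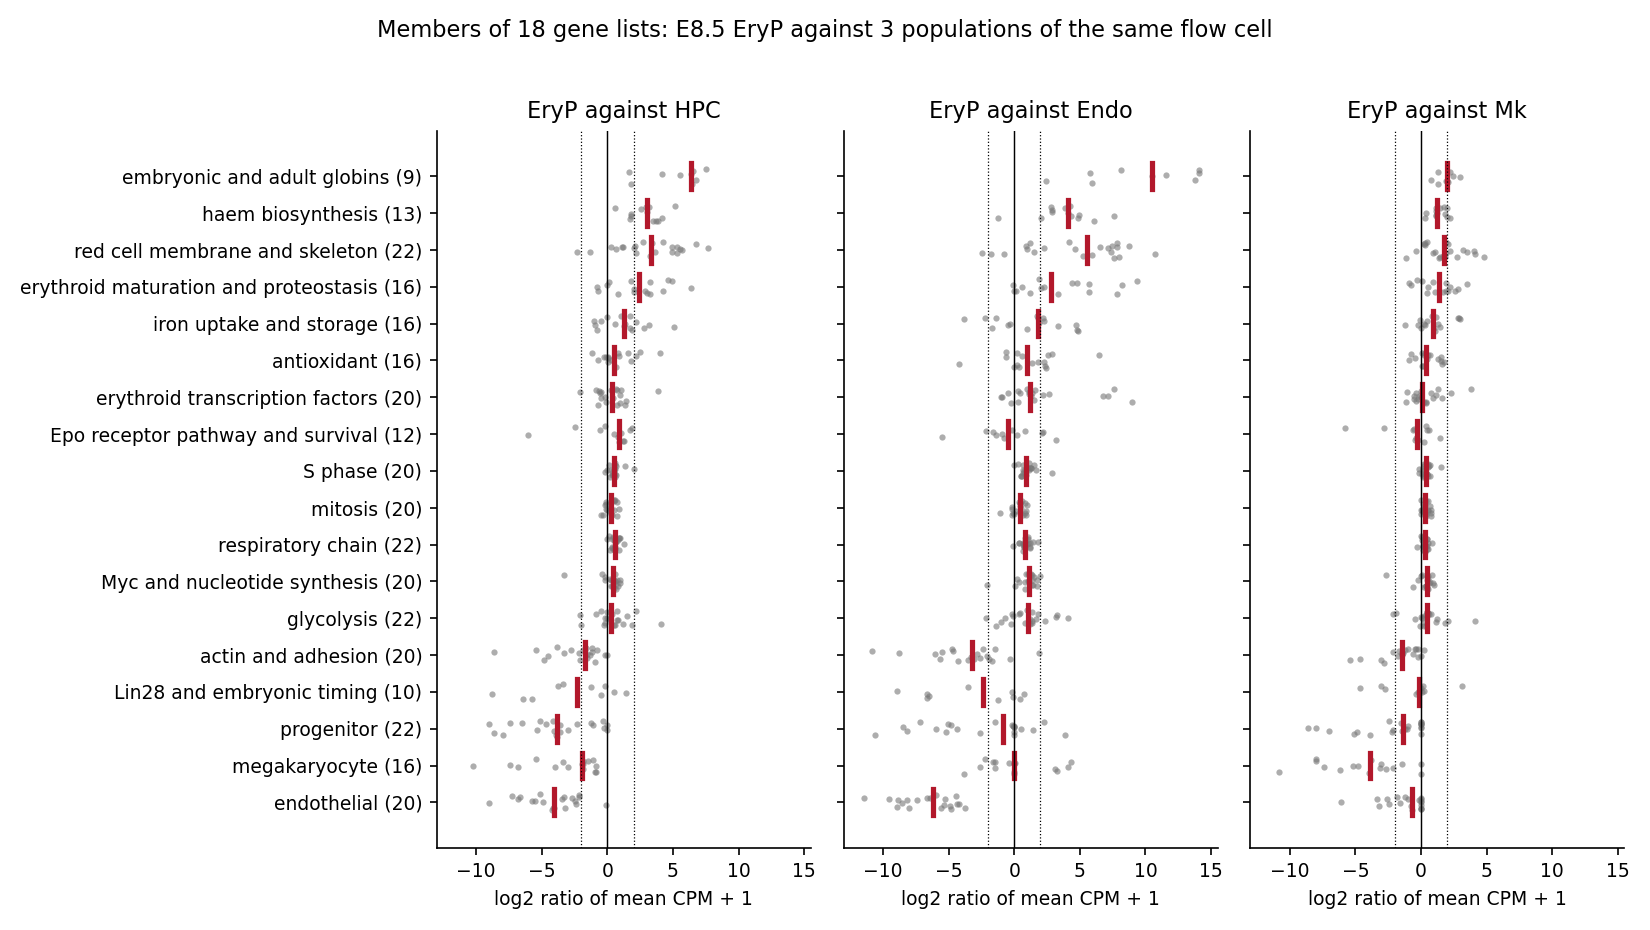
Log2 ratio of mean CPM + 1, EryP over HPC, Endo and Mk, for the members of 18 gene lists. Each point is a gene, the red bar is the median of the list and the dotted lines mark 4-fold in either direction. The haem genes have medians of 3.04, 4.10 and 1.19, and the mitosis genes 0.26, 0.46 and 0.34.

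Calls of cell cycle genes stand beside the shares over all genes tested. These were 3.74%, 6.82% and 1.52% higher than in HPC, Endo and Mk, and 6.18%, 20.9% and 3.79% lower. Of the 20 genes of S phase, *Ccne1* alone passed the limit, against HPC and Endo, with means of 110, 25.5, 14.3 and 38.0 CPM. *Mcm2*, a subunit of the replicative helicase, had means of 439, 325, 181 and 404 CPM. None of the 20 mitosis genes was called in any comparison. *Mki67* had means of 751, 402, 503 and 455 CPM. The median log2 ratio was 0.53, 0.87 and 0.35 for S phase and 0.26, 0.46 and 0.34 for mitosis. With CPM on the total count, these medians were 0.29, 0.68 and 0.19 for S phase and 0.03, 0.27 and 0.19 for mitosis. With all captured cells, the medians against HPC were -0.01 and -0.19.

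*Cdk6*, a kinase that drives entry into S phase, was counted in 2 of 66 EryP cells, with means of 1.24, 219, 74.9 and 46.2 CPM in EryP, HPC, Endo and Mk. It was the only one of 13 cell cycle inhibitors, D cyclins and their kinases called in any comparison. It was lower than in HPC, as were 6.18% of all genes tested. *Cdk4* had means of 561, 585, 472 and 570 CPM. *Ccnd3*, the D cyclin of erythroid cells, had means of 267, 232, 207 and 337 CPM.

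Metabolic genes were also set beside all genes tested, of which 3.74%, 6.82% and 1.52% were higher than in HPC, Endo and Mk. Lower than in these populations were 6.18%, 20.9% and 3.79%. No difference of the lists from these shares was tested. Of 22 respiratory chain genes and of 20 genes of MYC and nucleotide synthesis, none was called in any comparison. Their median log2 ratios were 0.58, 0.80 and 0.30, and 0.45, 1.15 and 0.45. Against HPC these medians depended on the scaling and on the cells used. They were 0.33 and 0.21 with CPM on the total count, and 0.04 and 0.007 with all captured cells. Of 22 glycolytic genes, *Slc2a1* (glucose transporter 1) was higher than in HPC, with means of 443, 96.0, 191 and 121.4 CPM. *Pfkp* was lower than in HPC and Endo, with means of 23.3, 104.9, 108.97 and 91.5 CPM. Against Endo *Pfkl* and *Bnip3* were also called higher, and against Mk *Pdk1* was called higher and *Slc2a3* lower. *Pklr*, the pyruvate kinase of red cells and liver, was counted in 21 of 66 EryP cells (31.8%, 20.9% to 44.4%) and in no cell of HPC, Endo or Mk. Its mean of 16.4 CPM in EryP was below the level limit.

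Of the 16 antioxidant genes, 3 (*Prdx2*, *Gpx1* and *Blvrb*) were higher than in HPC (3.74% of all genes tested), 6 were higher than in Endo (6.82%) and none passed the limit against Mk (1.52%). *Prdx2*, a peroxiredoxin, had means of 2433, 431, 324 and 988 CPM in EryP, HPC, Endo and Mk. *Gpx1*, a glutathione peroxidase, had means of 3860, 865, 788 and 1367 CPM. *Blvrb*, which reduces biliverdin, had means of 685, 40.8, 6.78 and 199 CPM.

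Of 10 embryonic timing genes of the LIN28 group, 2 were lower than in HPC (6.18% of all genes tested), 4 lower than in Endo (20.9%) and 1 (*H19*) higher than in Mk (1.52%). *Hmga2*, a chromatin protein, was counted in 3 of 66 EryP cells at no more than 1.60 CPM, with means of 0.0553, 467, 502 and 6.26 CPM in EryP, HPC, Endo and Mk. *Trim71*, an RNA-binding regulator, had means of 2.74, 326, 367 and 30.5 CPM. *Lin28b* was counted in 61 of 66 EryP cells at means of 143.8, 167, 103.85 and 142.7 CPM, whereas *Lin28a* was counted in 1 of 66. EryP and Mk thus shared low *Hmga2*, and HPC and Endo shared high levels.

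The spread among the EryP cells ranged widely between genes. Over the 2303 genes at 100 CPM or more in EryP, the coefficient of variation among the 66 cells had a median of 0.736 and ran from 0.175 to 3.21. The lowest were *Gm12174*, *Gm13456*, *Eef1a1*, *Rpl14-ps1* and *Rps3*, which encode ribosomal proteins or an elongation factor or are processed copies that can share reads with such genes. The highest were *AW549877*, *Zfp62*, *Zfp260*, *Zfp948* and *Gm15446*. The 6 globins at this level had a median of 0.454, with *Hbb-bh1* at 0.249, *Hba-x* at 0.302 and *Hbb-y* at 0.897, and the 10 haem genes had a median of 0.522.

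*Hbb-y* was thus the globin of the embryonic 3 that varied most. Its share of *Hbb-y* plus *Hbb-bh1* per length was 0.0262% (lowest), 19.2% (median) and 51.2% (highest), with quartiles at 12.7% and 31.8%. It was under 1% in 4 cells and over 40% in 7 cells and between these limits in the other 55. The share of *Hba-a1* and *Hba-a2* among alpha-type transcripts varied less, at 8.99%, 16.3% and 23.8%.

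**Figure D5:**
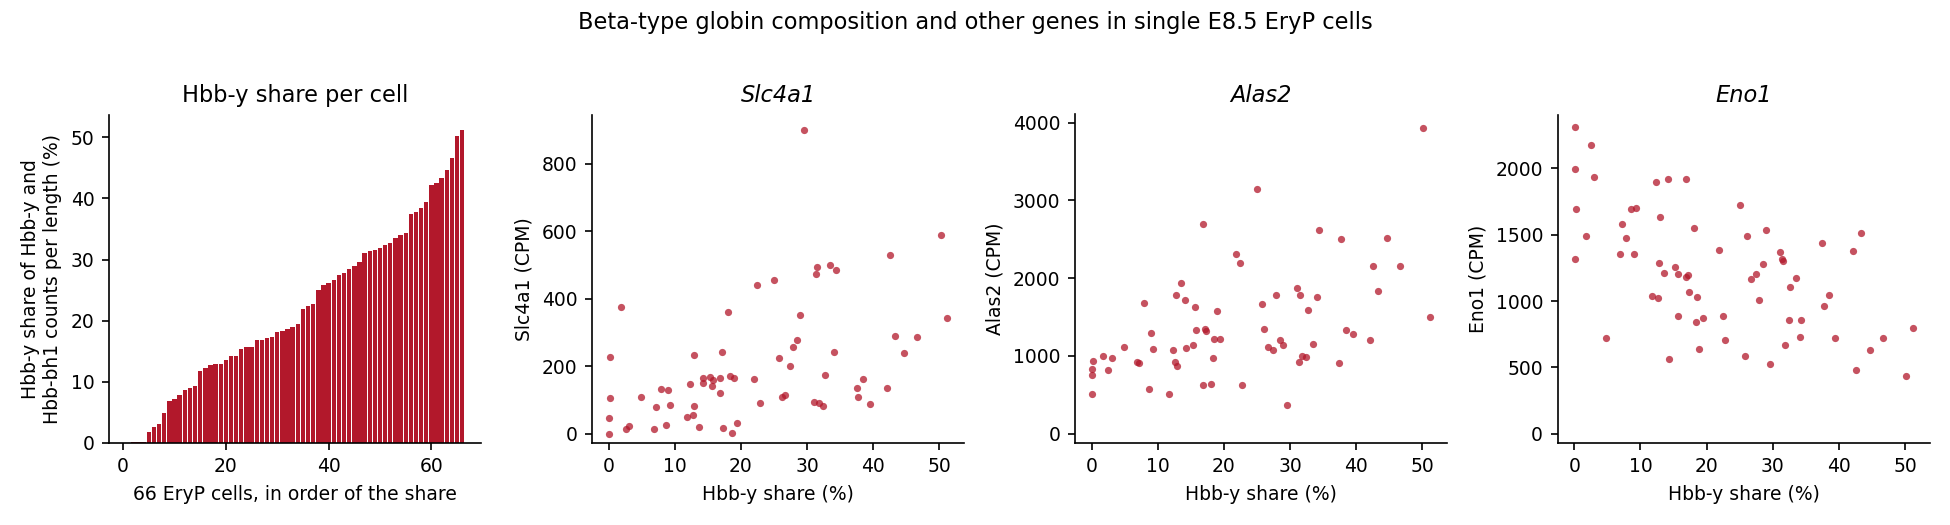
Share of *Hbb-y* in *Hbb-y* plus *Hbb-bh1* per length in the 66 EryP cells, sorted (first panel, percent), and against the level of *Slc4a1*, *Alas2* and *Eno1* (other panels, CPM). Each bar or point is 1 cell. The share runs from 0.0262% to 51.2%, with *Slc4a1* and *Alas2* tending to be higher and *Eno1* lower in cells with a greater share.

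Across the 66 cells, which share 1 library preparation and 1 scaling, the share of *Hbb-y* went with some red cell genes and not with others. Spearman's rank correlation is given as a description and with no p. The correlation was 0.58 for *Hba-x*, the highest of the 2303 genes other than *Hbb-y*, 0.52 for *Slc4a1*, 0.50 for *Alas2* and 0.49 for *Slc25a37*. Over all 2303 genes, the 5th and 95th percentiles of the correlation were -0.23 and 0.23. Several red cell genes lay between these percentiles, among them *Sptb* at 0.19, *Cpox* and *Fech* at 0.11, *Epb42* at 0.09 and *Tmod1* at 0.03. The lowest was *Eno1* (enolase), at -0.53, followed among the glycolytic genes by *Pkm* at -0.46, *Ldha* at -0.43 and *Gpi1* at -0.40. The transcription factors stood near 0, with *Klf1* at -0.11 and *Gata1* at 0.12.

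Without the cells that held transcripts of both sexes, 48 cells were left, and the correlation was 0.64 for *Hba-x*, 0.48 for *Slc4a1*, 0.49 for *Alas2*, 0.36 for *Slc25a37* and -0.48 for *Eno1*. Over all 66 cells, the correlation of the share was -0.24 with the total count and 0.72 with the globin share of counts, of which *Hbb-y* is a part, and -0.17 and 0.73 over the 48. The glycolytic genes summed gave -0.51 over the 66 cells and -0.40 over the 48, and the haem genes 0.43 and 0.50.

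Only 3 EryP cells of E10.5 were in the filtered tables, from another flow cell, and no comparison was made with them. Their *Hbb-y* shares were 65.5%, 63.8% and 62.0%, and globins took 35.5%, 31.5% and 36.0% of their counts.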

How the data were processed

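Single yolk sac cells had been sorted, captured on Fluidigm C1 chips and sequenced by the authors. Per the labels and the methods of the study, reads were aligned with Subread (Rsubread) to GRCm38 and summarised with featureCounts against an Ensembl annotation, cells were filtered with scater, and size factors came from scran. The deposited count tables hold unnormalised reads per gene (15967 genes in the filtered and 47643 in the unfiltered table). The deposited size-normalised signal, called CPM here, is the count of each gene times 1 factor per cell, and this was checked on the files. The authors' sums of CPM differed between cells, with a median of 1193960 in EryP, 996407 in HPC, 1006569 in Endo and 1065777 in Mk. EryP values were thus scaled up more than those of the other populations relative to CPM on the total count.

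Groups were taken from the labels. Mean CPM + 1 was compared between EryP and HPC, Endo and Mk with a limit of 4-fold, a level of 100 CPM and detection in 50% of cells. No test was run, neither the Wilcoxon test over cells of the study nor another, because each population was 1 capture. Shares of cells are given with exact (Clopper-Pearson) 95% limits for counting error alone, except that a share of 0 has 3 cells of the total as its upper limit, which is lower than the exact limit, and a level of 0 has a floor of 3 counts. Counts over lists include genes of the sorting antigens unless stated. Depth was 1303515 to 3017274 counts per EryP cell, which allows genes of a few CPM to be counted. No doublet caller was run, and cells with transcripts of both sexes were counted instead.

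The members and the 23 gene lists (384 genes, 368 in the table) were chosen with earlier results of these data known. Named genes were those of the lists, the 15 genes per direction with the greatest smallest-of-3 ratio, 5 per direction in each comparison, and the 5 genes with the highest and lowest coefficient of variation. Some genes are not reported here. Counting was not stated to use strand, so overlapping genes can share reads. Promoter sequences were taken from RefSeq and gene positions from GENCODE on the same build. The code was tested on simulated data. Alternatives were other scalings, medians over cells, thinning to 840000 counts, other level, fold, detection and pseudocount limits, and all captured cells. Leaving out cells with transcripts of both sexes was chosen after seeing the data. Computation was in Python 3.11.15 with scipy 1.17.1, pandas 2.3.3 and numpy 2.4.6, and plots were drawn with matplotlib 3.10.9.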

Additional observations from a re-analysis of the deposited data

Results flagged for a closer look

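The 18 EryP cells that the filter of the study left out had a median globin share of counts of 2.22%, with a lowest cell at 0.0668% and a highest at 10.8%. They stood out because data outside the main comparison carried the red cell signal above the level of Endo, where the highest captured cell was at 0.0112%. The 66 cells that passed had 4.24% to 17.1% in the same unfiltered table, and 11 of the 18 lay below the lowest of them. The 18 cells had total counts of 31533 (lowest), 469622 (median) and 3027995 (highest) and 1314, 2019.5 and 5304 genes with a count. The cells that passed had 5793, 7775 and 8778 genes. The *Hbb-y* share of *Hbb-y* plus *Hbb-bh1* in the 18 cells was 0.448%, 8.51% and 45.4%, within the range of those that passed. With all captured cells, the median globin share of EryP was 8.18%.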

How the results depend on the processing

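No paired analysis was possible because replicate numbers only name cells and each population was 1 capture. With CPM on the total count, CPM without globins, thinned counts, detection at 10 counts or a pseudocount of 10 CPM, every number of called genes stayed within 1.5 times its main value. Of the 28 genes higher and 31 lower than all 3 populations, 23 and 29 remained with CPM on the total count. With medians over cells, 47 genes (2.63% of those tested) were higher than all 3, with 26 of the 28 among them, 265 (14.8%) were higher than Endo and 59 (3.3%) higher than Mk. The share of higher among called genes then moved from 23.9% to 39.3% against Endo and from 29.2% to 44.4% against Mk. At a level of 20 CPM more genes were tested, and the share called was 0.907% higher and 2.68% lower than all 3, 2.58% and 8.41% against HPC, 6.04% and 18.3% against Endo, and 1.4% and 4.42% against Mk. At a fold of 2 it was 4.56% and 5.3% for all 3, 9.64% and 13.3% for HPC, 28.9% higher than Endo, and 6.47% and 9.23% for Mk. With all captured cells, 56 genes (3.21%) were higher than all 3, with 24 of the 28 among them, 6.25% were higher than in HPC, with 63 of the 86 among them, and 4.76% were higher and 7.66% lower than in Mk. The cause was not tested. Of the 31 lower genes, 17 remained with medians over cells. Without the cells with transcripts of both sexes, 30 were higher than all 3 (26 shared) and 36 lower (31 shared). Genes per cell at 10 counts were 4827 in place of 6859.

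Of 2205 recomputed ratios of named genes past the limit, 1798 stayed within 1.5 times and none changed sign, but 69.5% of the 315 moved by more with medians over cells and 49.5% with a pseudocount of 10 CPM. Medians of some lists did change sign: with all captured cells, EryP over HPC was -0.01 for S phase, -0.19 for mitosis, -0.14 for glycolysis and -0.07 for antioxidant genes, and without globins in the total, EryP over Endo was 0.02 for cell cycle inhibitors and D cyclins. CPM on the total count shifted the median of all genes at 100 CPM from 0.09 to -0.15 against HPC, from 0.27 to 0.10 against Endo and from 0.09 to -0.05 against Mk. Depth limits genes of a few CPM.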

Other observations

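Some genes were found in a minority of EryP cells. *Car1*, a carbonic anhydrase of definitive red cells, was counted in 22 of 66 EryP cells and reached 2097 CPM, with a mean of 51.6 CPM against 1.79, 0 and 15.2 CPM in HPC, Endo and Mk. *Bcl11a*, a repressor of embryonic globins in definitive cells, was counted in 4 of 66 EryP cells (6.06%, 1.68% to 14.8%) and in 58 of 89 HPC (65.2%, 54.3% to 75.0%). The median level of *Bcl11a* over cells was 0 CPM in Endo and Mk too, so a low level was not particular to EryP. The long non-coding RNA *H19* was counted in all 66 EryP cells, with means of 476, 182, 541 and 52.7 CPM in EryP, HPC, Endo and Mk. Among the 35 genes called higher than in Mk, *Slc29a1*, a nucleoside transporter, had the second highest ratio of EryP to Mk. Its means were 341, 55.6, 128.7 and 19.7 CPM. The Mk capture held red cell transcripts at intermediate levels, with *Hbb-bh1* in 37 of 37 cells, and their source was not tested.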
